A study of Homo sapiens with 21 samples.

Results

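Open chromatin at 9 marker genes of homeostatic microglia was described in ATAC-seq peak lists of 21 libraries from 7 isogenic human microglia-like lines. The genes were CX3CR1, P2RY12, P2RY13, TMEM119, GPR34, OLFML3, SLC2A5, SELPLG and BHLHE41. ATAC-seq uses a transposase that cuts and tags accessible DNA, so a peak is a stretch where tags pile up. Merging every pair of peaks that shared 1 bp or more gave 166736 regions, and a region was given to a gene when the span of that gene was the nearest protein-coding span within 100 kb. Of these regions 57 fell to the 9 genes, at 8 of them, and TMEM119 had none. A library "called" a region when any of its peaks lay in it.

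The cells came from H9, a widely used human embryonic stem cell line, by way of haematopoietic progenitors and 28 days of microglial differentiation with IL-34, TGF-beta1 and M-CSF. CD200 and CX3CL1, the ligand of CX3CR1, were added to every line in the final 3 days. The lines were TREM2-R47H (a missense variant of the lipid-sensing receptor TREM2), TREM2-KO, SORL1-A528T (a missense variant of the endosomal sorting receptor SORL1), SORL1-KO, CD33 SNP (a variant at CD33, an inhibitory receptor for sialic acid), INPP5D SNP (a variant at INPP5D, an inositol phosphatase) and unedited WT, with 3 libraries each. All edits were homozygous by the labels, and the INPP5D SNP line carries the A allele on both copies where H9 is heterozygous G/A. Edited cells were isolated as clones, and the sources used here do not give how many clones stand behind each line. The libraries titled SORL1-A528T carry TREM2-KO as their genotype label, and SORL1-A528T here means the libraries with that title. The labels describe a SORL1 R744X edit and do not state that SORL1-KO is that line. They also describe an EGFP reporter placed behind the last exon of CX3CR1 in control, TREM2 R47H and SORL1 R744X lines for microscopy; the sources used here do not say whether any ATAC-seq library came from reporter cells. The labels do not say that the replicates are separate differentiations, and the p-values below then measure only how far these libraries spread, which may be technical.

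Homeostatic microglia survey the brain with motile processes, and the state depends on CSF1R ligands such as IL-34 and on TGF-beta. CX3CR1 receives fractalkine from neurons, the purinergic receptors P2RY12 and P2RY13 sense ADP, and GPR34 binds lysophosphatidylserine. SELPLG is the ligand of P-selectin, SLC2A5 a fructose transporter, OLFML3 a secreted glycoprotein, TMEM119 a transmembrane protein used to tell microglia from other macrophages, and BHLHE41 a transcriptional repressor that binds E-boxes. PU.1, a factor of the ETS family, and IRF8 shape the enhancers of the myeloid lineage.

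Promoter sequence from RefSeq (GRCh38.p14) was matched for CX3CR1, P2RY12, P2RY13, OLFML3, SLC2A5 and BHLHE41, with 9 start sites in all. The 6 stretches printed here, each the 250 bases upstream of a start site read 5′ to 3′ on the strand of the gene, show the start sites that differed in how often they were called. CX3CR1 and P2RY12 each have start sites with unlike call rates, BHLHE41 holds the E-box letters, and OLFML3 had the largest F statistic between lines. Capitals mark the ETS letters GGAAGT, including within the PU.1 letters GAGGAAGT, and the ETS-IRF composite GGAANNGAA, each searched on both strands. Position -1 is the base just before the start site, and a motif is placed by its leftmost base.
CX3CR1 start site called in 15 libraries, chr3:39281736-39281985, minus strand: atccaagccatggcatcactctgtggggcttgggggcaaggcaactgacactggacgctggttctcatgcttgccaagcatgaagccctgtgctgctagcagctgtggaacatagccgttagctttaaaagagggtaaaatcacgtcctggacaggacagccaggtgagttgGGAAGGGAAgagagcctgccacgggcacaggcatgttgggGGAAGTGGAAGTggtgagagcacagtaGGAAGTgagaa
CX3CR1 start site called in 21 libraries, chr3:39280442-39280691, minus strand: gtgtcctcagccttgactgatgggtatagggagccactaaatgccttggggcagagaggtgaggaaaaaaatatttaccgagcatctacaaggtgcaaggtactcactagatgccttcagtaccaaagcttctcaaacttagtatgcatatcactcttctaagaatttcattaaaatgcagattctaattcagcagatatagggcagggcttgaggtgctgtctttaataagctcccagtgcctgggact
P2RY12 start site called in 21 libraries, chr3:151384754-151385003, minus strand: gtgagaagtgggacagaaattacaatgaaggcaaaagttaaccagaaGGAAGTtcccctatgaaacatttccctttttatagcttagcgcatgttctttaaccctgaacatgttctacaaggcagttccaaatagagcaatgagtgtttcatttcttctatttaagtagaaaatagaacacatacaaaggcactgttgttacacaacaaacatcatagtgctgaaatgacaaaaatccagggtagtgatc
P2RY12 start site called in 0 libraries, chr3:151340823-151341072, minus strand: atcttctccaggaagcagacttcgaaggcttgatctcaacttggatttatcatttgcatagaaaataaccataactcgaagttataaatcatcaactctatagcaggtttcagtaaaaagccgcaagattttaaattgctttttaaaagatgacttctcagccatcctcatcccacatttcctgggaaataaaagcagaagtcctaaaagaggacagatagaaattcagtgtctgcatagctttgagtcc
OLFML3 start site called in 20 libraries, chr1:113979224-113979473, plus strand: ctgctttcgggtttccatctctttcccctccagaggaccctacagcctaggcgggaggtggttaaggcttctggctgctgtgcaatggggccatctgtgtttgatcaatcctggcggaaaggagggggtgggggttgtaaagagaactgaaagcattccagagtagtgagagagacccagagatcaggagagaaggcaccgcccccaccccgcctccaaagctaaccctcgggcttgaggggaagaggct
BHLHE41 start site called in 21 libraries, chr12:26125038-26125287, minus strand: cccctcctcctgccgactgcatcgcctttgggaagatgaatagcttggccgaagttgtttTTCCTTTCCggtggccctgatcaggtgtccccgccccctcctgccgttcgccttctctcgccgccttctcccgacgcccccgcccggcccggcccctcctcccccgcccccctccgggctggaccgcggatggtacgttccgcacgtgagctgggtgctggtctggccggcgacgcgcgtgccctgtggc

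The printed CX3CR1 start site called in 15 libraries had the ETS letters at -38, -32 and -11 and the composite at -78. Another CX3CR1 start site (39281273), not printed, lay under the same region, also called in 15 libraries, and had neither in its window. The CX3CR1 start site called in all 21 libraries had neither as well, so the letters did not follow the call rate. The P2RY12 start site called in all libraries had the ETS letters at -203, and the P2RY12 start site under no region had none. BHLHE41 had the composite at -190 on the reverse strand and the E-box letters CACGTG, which BHLHE41 itself is known to bind, at -48. Over the 9 member windows the ETS letters stood in 2, against 20.5% of 22132 promoter windows of the same length, the composite in 2 (6.38%), the E-box in 1 (7.37%), and the PU.1 letters in 0 (2.22%). The AP-1 letters TGANTCA (5.35%) and the RUNX letters TGTGGT (9.36%) stood in 0 of the 9. A region called in all 21 libraries covered 4 of the 9 start sites, and 42.9% of all annotated start sites.

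Pooled over the 9 genes, the regions were called in more libraries than the regions at large, and the genes differed. Of the 57 regions, 16 (28.1%) were called in all 21 libraries, against 15.4% of all regions, and 7 (12.3%) in a single library, against 25.8%. Of the 16, 7 lay at CX3CR1 and 4 at P2RY12, while OLFML3 had 1 of its 10 regions, SELPLG 1 of 9 and SLC2A5 0 of 10. The lists of myeloid identity and perivascular macrophage genes used below had shares of 25.9% and 24.4%, and the other lists 0% to 19.9%. The median region was called in 13 libraries for the 9 genes and in 7 for all regions, and its width was 865 bp against 737 bp. A region called in every library was present at 7 of the 9 genes, and 58.4% of 19974 protein-coding genes had one. A region called in every library within 1 kb of a gene end was present at 7 genes too, and at 44.1% of all genes; SLC2A5 and TMEM119 lacked both. Genes with no region made up 8.46% of all genes. Members had a median of 8 regions per gene, against 4 for all genes, and 12 of the 57 regions lay equally near to an overlapping gene: 9 at P2RY12 and P2RY13 inside MED12L, 2 at GPR34 with CASK and 1 at BHLHE41 with SSPN.

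**Figure D1:**
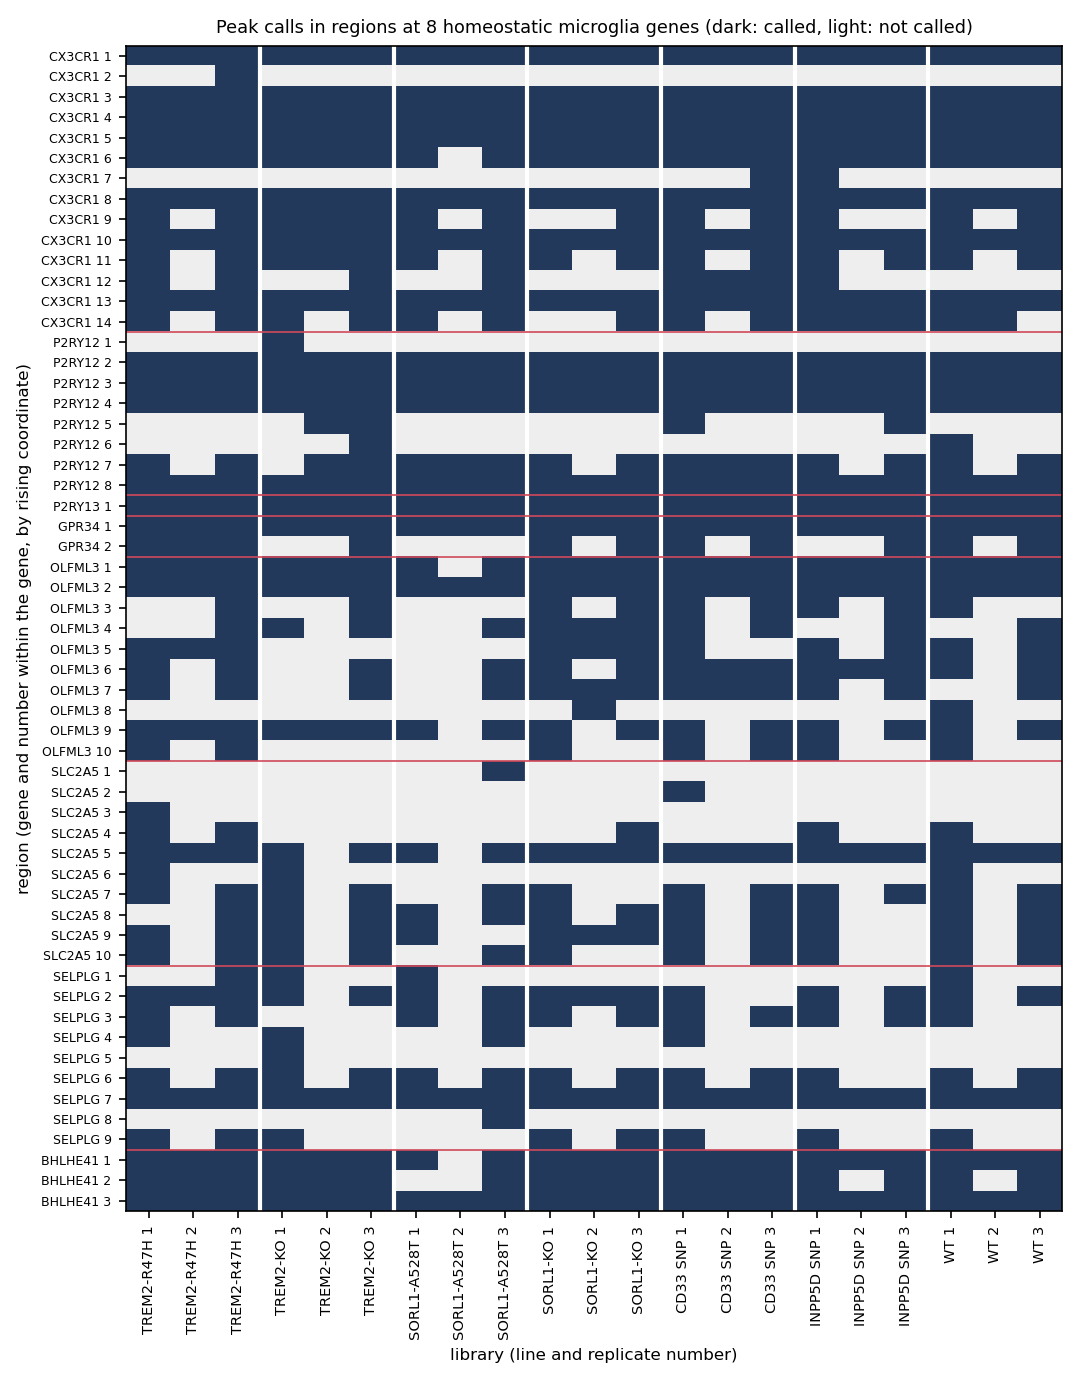
Peak calls in the 57 regions of 8 genes (rows, numbered within each gene by rising coordinate) in the 21 libraries (columns, by line and replicate number); dark cells are called. The 16 rows that are dark throughout are the regions called in every library, and the replicate 2 column of each line is the palest, with 17 to 27 of 57 regions called.

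Depth followed the replicate number. Replicate 1 libraries had 56.5 to 67.4 M tags per library (1 M being 1000000), replicate 2 libraries 12.8 to 17.5 M and replicate 3 libraries 32.6 to 52.9 M. The fragment length in the file headers was 74 bp in replicates 1 and 3 and 136 to 494 bp in replicate 2. The member regions called per library numbered 31 to 45, 17 to 27 and 35 to 45 in these 3 sets, and 21 of the 57 (36.8%) were never called in a replicate 2 library, as were 42.4% of all regions. A region that was not called is not shown to be closed. The labelled cell type was set against marker lists. Counted were genes with a region called in every library within 1 kb of a gene end, 44.1% of all genes. Such a region was present at 10 of 12 myeloid identity genes, 0 of 6 pluripotency genes and 0 of 13 erythroid, megakaryocyte and mast cell genes. The disease-associated microglia list had 9 of 16, the perivascular macrophage list 3 of 9 and the monocyte list 3 of 8. The lymphoid list had 3 of 9, the neural and astrocyte list 3 of 10 and the endothelial and mesenchymal list 1 of 9. Peak calls cannot tell fewer cells of a type from a weaker signal per cell.

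**Figure D2:**
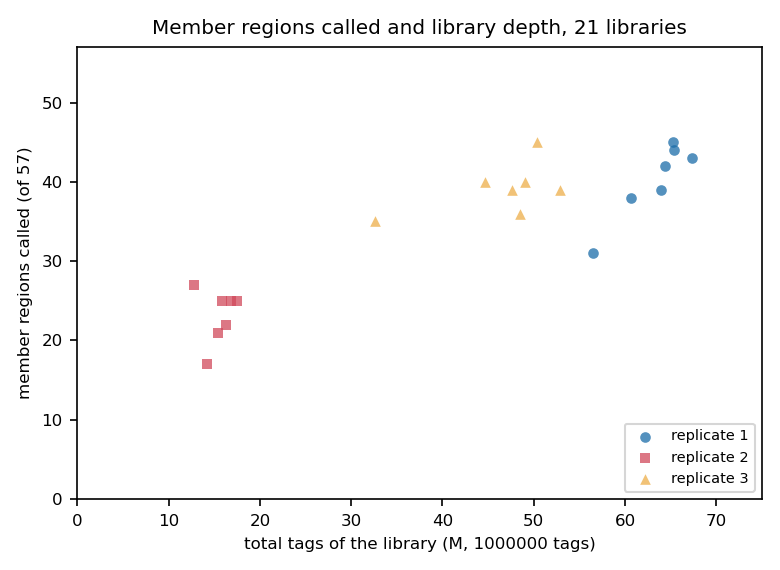
Number of member regions called (of 57) against the total tags of each library in M, with colour and shape by replicate number. The 7 replicate 2 libraries, with 12.8 to 17.5 M tags, sit at 17 to 27 regions, below all 14 others at 31 to 45.

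CX3CR1 had the most regions of the 9 genes, 14, of which 7 were called in all 21 libraries. Its regions took 74.8% of all possible calls, and single libraries called between 50.0% and 92.9% of them. The region over the lower-coordinate end of the gene, where its last exon lies (chromosome 3, 39260117 to 39265004), was called in every library of every line. Since the score column was constant, strength was read from the place of a peak in the list of its library, as a percentile in which the first peak is 100. Regions called in all libraries had a median percentile of 82.1 over the genome and those called in 1 library 8.87. On this scale the CX3CR1 last-exon region stood at 96.1, 92.2 and 95.0 in TREM2-R47H, 83.6, 93.0 and 97.8 in TREM2-KO, 83.9, 79.6 and 89.6 in SORL1-A528T, 94.8, 91.6 and 94.2 in SORL1-KO, 91.8, 88.1 and 94.1 in CD33 SNP, 94.3, 80.6 and 89.0 in INPP5D SNP and 93.0, 79.6 and 97.6 in WT. The lines overlapped, with the lowest median in SORL1-A528T.

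Below this region, outside the gene, 3 more CX3CR1 regions were called in every library, and 2 of them (39249380 to 39251096 and 39255069 to 39258387) stood at median percentiles of 91.9 and 93.3. The CX3CR1 start sites were weaker. The region over one of them (39279526 to 39280947) was called in 21 libraries at a median percentile of 82.4, and the region over the pair next to it (39281232 to 39282295), which holds the ETS letters printed above, was called in 15 libraries at a median of 33.8. All replicate 1 and replicate 3 libraries called it, and among the shallow replicate 2 libraries TREM2-KO was the 1 that did. At the higher-coordinate end of CX3CR1 a region (39291686 to 39292428) was called in 14 libraries at a median percentile of 28.1.

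P2RY12 and P2RY13 lie side by side, and their strongest regions were among the first peaks of the lists. P2RY13 had 1 region, over its start site (chromosome 3, 151327380 to 151332277), called in 21 libraries at a median percentile of 93.9. P2RY12 had 8 regions, 4 of them called in all libraries, with 63.7% of the possible calls. The region over its distal start site (151382460 to 151386317) stood at 96.2, 86.2 and 96.2 in TREM2-R47H, 87.0, 94.2 and 97.7 in TREM2-KO, 89.3, 80.6 and 91.1 in SORL1-A528T, 96.1, 93.3 and 97.8 in SORL1-KO, 97.1, 89.1 and 98.3 in CD33 SNP, 97.8, 89.8 and 97.1 in INPP5D SNP and 97.4, 88.1 and 97.6 in WT. In 6 of the 7 lines replicate 2 was the lowest, and in TREM2-KO replicate 1 was, with the lines overlapping.

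The other 3 constant P2RY12 regions lay within the gene and had median percentiles of 96.5 (151345658 to 151348267), 88.1 (151350885 to 151352791) and 84.3 (151356556 to 151357925). The second annotated start site of P2RY12, whose window is printed above, lay under no region of any library. All 9 regions of this pair overlap the span of MED12L as well, so the calls cannot be assigned to either gene by position. A P2RY12 region between these and the distal start site (151379142 to 151379933) was called in 16 libraries, in 3 of 3 libraries of SORL1-A528T and CD33 SNP and in 2 of 3 of each other line.

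GPR34 had 2 regions. The one over its lower-coordinate end (chromosome X, 41686376 to 41692323) was called in 21 libraries, at a median percentile of 78.8. Its percentiles varied within some lines and between lines. They were 97.2, 65.5 and 93.1 in TREM2-R47H and 92.1, 34.0 and 92.9 in WT. The ranges were 65.2 to 91.4 in TREM2-KO, 60.2 to 93.3 in SORL1-A528T and 84.2 to 85.3 in SORL1-KO. In CD33 SNP the range was 75.2 to 81.5 and in INPP5D SNP 45.4 to 77.5. Line medians ran from 67.1 in SORL1-A528T to 93.1 in TREM2-R47H. The region over its other end (41693032 to 41696680) was called in 3 of 3 libraries of TREM2-R47H, 1 of TREM2-KO, 0 of SORL1-A528T, 2 of SORL1-KO, 2 of CD33 SNP, 1 of INPP5D SNP and 2 of WT. Where called, this GPR34 region stood at percentiles of 81.8, 4.90 and 75.3 in TREM2-R47H, 24.3 in TREM2-KO, 67.8 and 17.3 in SORL1-KO, 35.5 and 12.3 in CD33 SNP, 11.1 in INPP5D SNP and 54.6 and 0.963 in WT. It stood highest in replicates 1 and 3 of TREM2-R47H, while replicate 2 of TREM2-R47H had it near the end of its list. Both GPR34 regions also overlap the span of CASK, and with 2 regions the gene was below the minimum of 5 for the test across genes.

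BHLHE41 had 3 regions and 92.1% of the possible calls. Its start-site region (chromosome 12, 26121518 to 26127277), 5760 bp wide, was called in all 21 libraries at a median percentile of 93.5. A region beyond its lower-coordinate end (26113113 to 26115606) was called in 20 libraries, missing in replicate 2 of SORL1-A528T, and stood at a median of 80.9. The region over that end (26118101 to 26120147) was called in 17 libraries: in 3 of 3 of TREM2-R47H, TREM2-KO, SORL1-KO and CD33 SNP, in 1 of SORL1-A528T, and in 2 each of INPP5D SNP and WT. SORL1-A528T thus held 6 of the 9 BHLHE41 calls it could have, against 8 in WT. The SORL1-A528T library of each replicate number had the shortest peak list of that number, between 39736 and 78438 peaks.

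**Figure D3:**
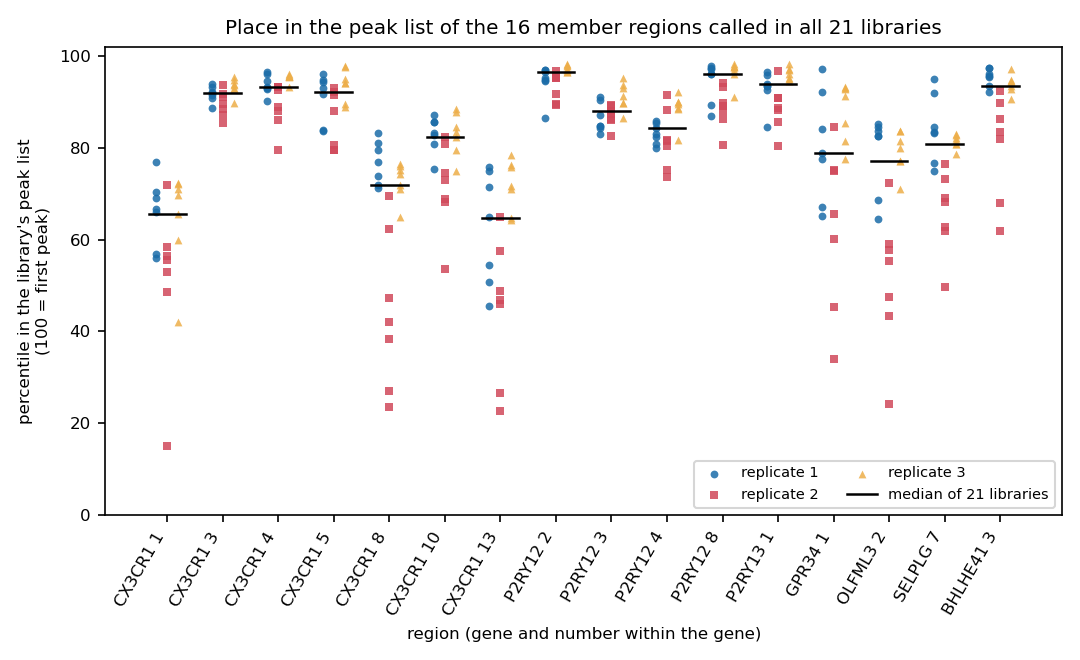
Place in the peak list, as a percentile with 100 for the first peak, of the 16 member regions called in all 21 libraries; points are libraries by replicate number and bars are medians. P2RY12 region 2 (median 96.5) and region 8 over the distal start site (96.1) are the highest and CX3CR1 regions 13 and 1 (64.7 and 65.5) the lowest.

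SELPLG had 9 regions, of which 1 was constant, over its higher-coordinate end (chromosome 12, 108633173 to 108636365, median percentile 80.8). Its regions took 41.3% of the possible calls, from 11.1% to 77.8% in single libraries, and the other 8 regions were called in 1 to 15 libraries. SLC2A5 was called least of the 8 genes, with 37.1% of the possible calls over 10 regions and between 0% and 70.0% in single libraries. None of its regions was called in every library. The region over the SLC2A5 start site (chromosome 1, 9069238 to 9070288) was called in 19 libraries, all but replicate 2 of TREM2-KO and of SORL1-A528T, and its percentiles ran from 44.5 to 79.9. The other 9 SLC2A5 regions were called in 1 to 13 libraries, and replicate 2 libraries called them 1 time in all.

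TMEM119, the other widely used microglia marker of the set, had no region over its span or nearest to it in any of the 21 libraries. It lay in a gap of 44307 bp between regions on chromosome 12. The gap was bounded by a region nearest to ISCU (108568524 to 108569024), called in 1 library, and a SELPLG region (108613332 to 108613989), called in 4. Within the gap the libraries of all 7 lines were alike in having no peak.

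Among the 5 genes with at least 5 regions, OLFML3 had the widest range of calls between lines. It had 10 regions, 1 of them called in every library (chromosome 1, 113981520 to 113983424, over its higher-coordinate end, median percentile 77.2), and the region over its start site (113978594 to 113979955) was called in 20 libraries, all but replicate 2 of SORL1-A528T. The other 8 OLFML3 regions lay 2749 to 50812 bp beyond the higher-coordinate end and were called in 2 to 16 libraries. They were given to OLFML3 by nearness alone. Out of 30 possible calls (10 regions in 3 libraries) OLFML3 had 20 in TREM2-R47H, 14 in TREM2-KO, 10 in SORL1-A528T, 23 in SORL1-KO, 21 in CD33 SNP, 19 in INPP5D SNP and 17 in WT. By library, in the order of replicates 1, 2 and 3, OLFML3 regions called numbered 7, 4 and 9 in TREM2-R47H, 4, 3 and 7 in TREM2-KO, 3, 1 and 6 in SORL1-A528T, 9, 6 and 8 in SORL1-KO, 9, 4 and 8 in CD33 SNP, 8, 3 and 8 in INPP5D SNP and 8, 2 and 7 in WT. SORL1-KO replicate 2 called 6 regions, more than any other replicate 2 library. It had the lowest depth of all, 12.8 M tags, and a list of 58237 peaks, above the replicate 2 median of 55094. It also called 27 member regions, the most of any replicate 2 library.

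One OLFML3 region (113990667 to 113991501) was called unevenly between lines. The share of all regions with such a split between edited lines was not counted. This region was called in 3 of 3 libraries of TREM2-R47H and SORL1-KO, 0 of TREM2-KO and SORL1-A528T, 1 of CD33 SNP, 2 of INPP5D SNP and 2 of WT. It was singled out after its values were seen. Where called, this OLFML3 region stood at percentiles of 51.9, 1.52 and 24.6 in TREM2-R47H, 0.470, 25.3 and 29.9 in SORL1-KO, 42.4 in CD33 SNP, 35.3 and 14.1 in INPP5D SNP and 18.3 and 17.3 in WT. Its highest place was in TREM2-R47H and its lowest in SORL1-KO, both lines that called it in every library.

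To set lines side by side despite depth, each call was reduced by the mean that the library in question called among all equally recurrent regions, and this depth-adjusted call was averaged per gene. A value of 0.1 means that a library called 10 more of 100 regions than it called among equally recurrent regions. The value was tested with limma over all 8732 genes with at least 5 regions, 5 of them members. For OLFML3 it averaged 0.0480 ± 0.0587 in TREM2-R47H, -0.126 ± 0.0139 in TREM2-KO, -0.112 ± 0.0996 in SORL1-A528T, 0.167 ± 0.0768 in SORL1-KO, 0.0221 ± 0.0668 in CD33 SNP, 0.0638 ± 0.0750 in INPP5D SNP and -0.0625 ± 0.0435 in WT (SD, n = 3 each). Its libraries ranged from 0.0789 to 0.222 in SORL1-KO and from -0.0958 to -0.0132 in WT. How many of the 8732 genes had ranges as separate as these was not counted.

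The F test over the 7 lines gave OLFML3 an F of 5.69 (limma, unadjusted p = 0.00138, adjusted p = 0.377), which did not pass the threshold of 0.05. Against WT its smallest p was in SORL1-KO, with a difference of 0.229 (SE 0.0627, limma, unadjusted p = 0.00157, adjusted p = 0.938), higher than the WT mean in 3 of 3 libraries. Between edited lines the largest OLFML3 difference was -0.293 for TREM2-KO against SORL1-KO (SE 0.0627, limma adjusted p = 0.159), and SORL1-A528T against SORL1-KO gave -0.279 (limma adjusted p = 0.188). Over the 15 pairs of edited lines and 5 genes, 75 tests in all, 0 passed by limma, which called 0% of all genes in each pair. Of the 75, 11 had an unadjusted limma p below 0.05 (14.7%), 9 of them for OLFML3 and 2 for P2RY12, and over all genes 8127 of 130980 did (6.20%), with 13.8% for TREM2-R47H against TREM2-KO. With unadjusted calls plus the replicate number as a block, an alternative extended to these pairs after seeing the data, OLFML3 passed in 3 pairs, all with SORL1-A528T. The difference in its share of regions called was 0.333 for TREM2-R47H against SORL1-A528T (limma adjusted p = 0.0292), -0.433 for SORL1-A528T against SORL1-KO (limma adjusted p = 0.0235) and -0.367 for SORL1-A528T against CD33 SNP (limma adjusted p = 0.0218). In these 3 pairs limma called 7.68%, 0.813% and 13.1% of all genes in that setting, and SORL1-A528T had the fewest calls of all lines over the regions at large. The part of this shortfall in the OLFML3 calls was not tested beyond the depth-adjusted values above, which did not pass. The OLFML3 difference of SORL1-KO from WT was positive in the 19 alternatives that gave one, between 0.185 and 0.303. The limma adjusted p-values were 0.418 to 1. Some of the 19 used unadjusted calls. Others, such as the replicate block and the minimum of 10 regions, could not change the difference. The number of alternatives is therefore no measure of support. With lists of equal length OLFML3 had fewer than 5 regions and gave no value.

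None of the other 4 genes with enough regions passed in any comparison by limma. P2RY12 averaged 0.0938 ± 0.0776 in TREM2-KO and -0.0184 ± 0.0642 in WT (SD, n = 3 each). The difference was 0.112 (SE 0.0591, limma adjusted p = 0.999), and 3 of 3 TREM2-KO libraries were above the WT mean. The 2 lines overlapped, with WT replicate 1 at 0.0537. The 3 TREM2-KO libraries had P2RY12 values of 0.00417, 0.137 and 0.140, and 41.3%, 46.5% and 46.4% of their called regions lay outside gene spans, a share that ran from 41.1% to 46.5% over all 21 libraries. The part of this share in the P2RY12 difference was not tested, and without TREM2-KO replicate 1 the difference was 0.186. SELPLG averaged 0.134 ± 0.164 in SORL1-A528T and -0.0766 ± 0.159 in WT (SD, n = 3 each), a difference of 0.211 (SE 0.141, limma adjusted p = 0.979) that was 0.130 without WT replicate 3. CX3CR1 had its smallest p in SORL1-A528T, at a difference from WT of 0.0788 (SE 0.0694, limma adjusted p = 0.979). It was higher than the WT mean in 2 of 3 libraries, and the difference was 0.0394 without WT replicate 3. SLC2A5 had its smallest p in INPP5D SNP, at -0.0805 (SE 0.121, limma adjusted p = 0.9996, lower than the WT mean in 2 of 3 libraries). With lists of equal length the CX3CR1 and P2RY12 differences were -0.0134 and -0.00397. The F statistics over lines were 1.48 for P2RY12, 0.932 for CX3CR1, 0.828 for SELPLG and 0.255 for SLC2A5, with limma adjusted p-values of 0.886, 0.922, 0.937 and 0.988.

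**Figure D4:**
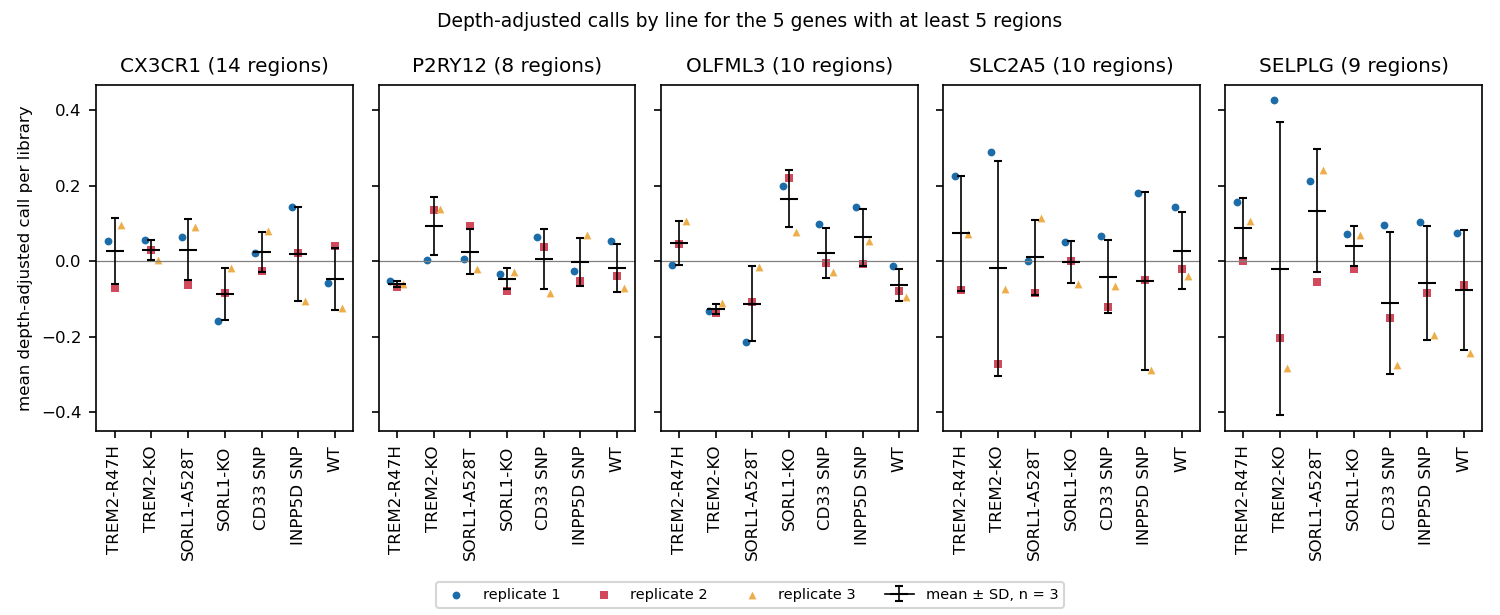
Mean depth-adjusted call of the 5 genes with at least 5 regions in each line, one panel per gene; points are libraries by replicate number and bars are mean ± SD (n = 3). OLFML3 has its highest mean in SORL1-KO (0.167) and its lowest in TREM2-KO (-0.126), and the widest scatter within a line is that of SELPLG in TREM2-KO.

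Few genes passed anywhere, so the members' results stand against a background near 0. Limma called 0 of 8732 genes (0%) for any difference between lines, with 531 at an unadjusted p below 0.05, and 0 of 8732 (0%) for the 6 edited lines together against WT, with 242. Against WT it called 0% of genes in TREM2-R47H (736 at an unadjusted p below 0.05), 0% in TREM2-KO (307), 0% in SORL1-A528T (357), 0% in SORL1-KO (415) and 0% in CD33 SNP (220). In INPP5D SNP it called 1 gene, NAA35 (0.0115%; 251 at an unadjusted p below 0.05), which is no member. Of the 5 members 0 passed in each comparison by limma, and over the 6 single-line comparisons OLFML3 in SORL1-KO was the 1 value at an unadjusted p below 0.05. In TREM2-R47H 4 of the 5 members had a positive difference, with a median of 0.0745 against 0.00820 for all genes. The counts were 3 of 5 in TREM2-KO (median 0.0573, all genes -0.0130), 3 in SORL1-A528T (0.0445, all genes -0.000151), 2 in SORL1-KO (-0.0278, all genes 0.00556), 3 in CD33 SNP (0.0247, all genes 0.00645) and 4 in INPP5D SNP (0.0188, all genes 0.00242). The comparisons with WT share the same 3 WT libraries, and the share of positive genes among all genes was not counted.

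Among the 57 regions, 1 was called in every library of an edited line and in no WT library. It was a CX3CR1 region inside the gene (chromosome 3, 39284262 to 39285031), 770 bp wide, called in 3 of 3 CD33 SNP libraries and 0 of 3 WT libraries. The same CX3CR1 region was called in 2 libraries of TREM2-R47H and in 1 each of TREM2-KO, SORL1-A528T and INPP5D SNP, and in 0 of SORL1-KO. Its percentiles were 30.9, 13.9 and 27.8 in CD33 SNP, and with each list cut to the 39711 peaks of the shortest it was called in 0 CD33 SNP and 0 WT libraries. In CD33 SNP 0.0954% of all regions were called in 3 of 3 libraries and in no WT library, and 0.0414% the reverse. For the other lines 0 of 57 member regions showed either pattern. The shares of all regions called in 3 of 3 libraries of the line and 0 of 3 of WT were 0.127% in TREM2-R47H, 0.048% in TREM2-KO, 0.0114% in SORL1-A528T, 0.0624% in SORL1-KO and 0.0276% in INPP5D SNP. The reverse shares were 0.303% in TREM2-R47H, 0.0576% in TREM2-KO, 0.487% in SORL1-A528T, 0.233% in SORL1-KO and 0.142% in INPP5D SNP. No member region was called in all libraries of 6 lines and in none of the seventh.

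Summed over the 57 regions, TREM2-R47H had 113 of 171 possible calls (66.1%), TREM2-KO 103 (60.2%), SORL1-A528T 87 (50.9%), SORL1-KO 105 (61.4%), CD33 SNP 110 (64.3%), INPP5D SNP 99 (57.9%) and WT 101 (59.1%). For all regions the shares were 45.7% in TREM2-R47H, 46.6% in TREM2-KO, 36.3% in SORL1-A528T, 43.6% in SORL1-KO, 49.1% in CD33 SNP, 42.9% in INPP5D SNP and 46.2% in WT. SORL1-A528T was the lowest by both measures. By library the member regions called, for replicates 1, 2 and 3, numbered 43, 25 and 45 in TREM2-R47H, 38, 25 and 40 in TREM2-KO, 31, 17 and 39 in SORL1-A528T, 39, 27 and 39 in SORL1-KO, 45, 25 and 40 in CD33 SNP, 42, 22 and 35 in INPP5D SNP and 44, 21 and 36 in WT. In each line but SORL1-KO these counts ranged more widely between replicate numbers than the lines did at any single replicate number.

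The genes whose depth-adjusted calls were most like the mean of the 5 tested members over the 21 libraries, by Pearson's r among 8724 genes, were RNF182 (r = 0.899), TANC2 (0.898), MICB (0.889), LRP1 (0.887) and DPP9 (0.880). All values of a library share its depth and peak list, so r is given as a description of likeness. The 5 members differed in how they followed each other: the r of each with the mean of the other 4 was 0.705 for SLC2A5, 0.671 for SELPLG, 0.285 for CX3CR1, -0.0317 for OLFML3 and -0.387 for P2RY12. The r of their mean with the share of called regions outside gene spans was -0.455, and the part of that share in the likeness was not tested.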

How the data were processed

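Per the labels' protocols, 80000 sorted cells per line went into Omni-ATAC and were sequenced in pairs on a NextSeq. The submitters' processing notes name cutadapt 1.18, STAR 2.7, HOMER 4.10 and DESeq2. Not given in the sources used here are the role of DESeq2, the genome build and any shift of reads for the transposase cut. HOMER, per the file headers, called peaks in histone style, 1 library at a time with no control, with peaks of 500 bp, a minimum distance of 1000 bp, a local filter of 4 times over 10000 bp and a local Poisson p of 0.0001. The score column, as deposited, is 1 for every peak, so the lists hold positions and no height, and only their order was used for strength. That order is not described in the headers.

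Gene names and neighbours came from RefSeq (GRCh38.p14, 19974 protein-coding genes). Of its 22132 start sites 42.9% were covered by a region that all libraries called, against 2.37% and 2.52% when shifted by 10000 bp either way, so the coordinates were read together. Coordinates are counted from 1. Chromosomes Y and M (0.0821% of 1604926 peaks) were left out, and 78.7% of regions had a gene within 100 kb. A region tied between overlapping genes counted for each. Depth-adjusted calls were averaged per gene and fitted with limma 3.58.1 in R 4.3.3 on all 21 libraries, by line alone, with Benjamini-Hochberg adjustment over all 8732 genes per comparison and a threshold of 0.05. The fit was tested on simulated data. All 9 members are named, with the comparison against WT of smallest p, start-site and all-or-none regions, and the 5 genes most alike. The members and lists were chosen with earlier results of these data known. Among them were the OLFML3 value in SORL1-KO and the CX3CR1 region called in every CD33 SNP library and no WT library. Neither is therefore independent support. Alternatives were a cover of 50% of the region, lists of equal length (39711 peaks), other minimums of regions and libraries, single-gene regions, a 10 kb window, unadjusted calls, a replicate block and leaving out libraries.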

Additional observations from a re-analysis of the deposited data

How the results depend on the processing

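Replicate 2 libraries differ from the others in tags and fragment length at once, which cannot be told apart, and a region missed in one may be open. The count of genes past the threshold by limma for any difference between lines (0) was 1 with at least 1 region per gene, 1 with at least 10, 1 with lists of equal length and 24 with unadjusted calls plus the replicate block. It was 1 for TREM2-R47H with lists of equal length, 2 for SORL1-A528T with unadjusted calls plus the block, and 1 for CD33 SNP with at least 1 region per gene. The 1 call in INPP5D SNP was 0 with at least 1 or at least 10 regions, a 10 kb window, unadjusted calls with or without the block, a cover of 50% and lists of equal length. Leaving out libraries gave 0 to 1 calls for INPP5D SNP, for SORL1-KO (1 without replicate 1) and for the 6 edited lines (1 without CD33 SNP replicate 3). Differences from WT turned sign for CX3CR1 in SORL1-A528T (-0.0134) and P2RY12 in TREM2-KO (-0.00397) with lists of equal length. SLC2A5 in INPP5D SNP ran from -0.198 to 0.0342 with libraries left out, and was 0.00956 without replicate 3 and 0.0342 without INPP5D SNP replicate 3. Member regions in every library of an edited line and in no WT library (1) numbered 0 with lists of equal length and 2 to 4 without 1 replicate number, where 2 libraries per line are compared; the reverse (0) numbered 0 to 3, with 3 without replicate 2 and 1 without replicate 3. Same-numbered libraries of different lines correlated in their deviations at -0.0650 to 0.588 (median 0.182, 47 of 63 pairs over 0.1). Of the 21 libraries 14 were closest to their own number, and the median for other numbers was -0.116. Deviations were taken from the mean of each line, which ties the values for other numbers to those for the same number. The -0.116 is therefore no separate reference. Since not every same-numbered pair was over 0.1 and the labels name no shared origin for a number, the block stayed an alternative. With the replicate block on depth-adjusted calls, limma called as many genes for any difference between lines, for each edited line against WT and for the 6 together, and OLFML3 had an F of 5.69 (limma adjusted p = 0.189). For the 15 pairs of edited lines, where the alternatives were added after seeing the data, the block gave 59 genes for TREM2-R47H against TREM2-KO, 12 for TREM2-R47H against SORL1-A528T, 11 for TREM2-KO against SORL1-KO, 8 for SORL1-A528T against SORL1-KO and 1 for TREM2-R47H against INPP5D SNP (0 without it), and 0 of 75 member tests, with OLFML3 in TREM2-KO against SORL1-KO at a limma adjusted p of 0.0793. Unadjusted calls plus the block gave 3 of 75 member tests, and each other alternative 0. The causes were not tested. That OLFML3 difference (-0.293) ran from -0.362 to -0.243. Too few regions were left to test P2RY12 with single-gene regions, P2RY12 and SELPLG with at least 10 regions, and OLFML3, SLC2A5 and SELPLG with lists of equal length. All 169 F tests of single genes stayed short of the threshold, as did 111 differences between lines, of which 105 kept their sign, 4 turned and 2 were 0 (CX3CR1 in SORL1-A528T with unadjusted calls, with and without the block). Settings that refit the same differences, such as the replicate block on depth-adjusted calls, are among these and could not turn a sign. With libraries left out, the difference from WT ran from 0.104 to 0.305 for SELPLG in SORL1-A528T, 0.00577 to 0.159 for CX3CR1 in SORL1-A528T and 0.0625 to 0.229 for P2RY12 in TREM2-KO. A further 209 counts stayed within 1.5 times.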

Other observations

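A wider set of homeostatic genes was counted in the same way. Of 36 other homeostatic genes, all had a region, 31 had one called in all 21 libraries, and 22 had one within 1 kb of a gene end. Of all protein-coding genes 8.46% had no region, 58.4% had one called in all libraries and 44.1% had one within 1 kb of a gene end. The counts were not matched for regions per gene, which had a median of 4 over all genes and reached 53 at MEF2C and 72 at NAV3. Of their 467 regions 19.9% were called in every library, against 15.4% of all regions. NAV3, a neuron navigator family gene, had 12 such regions of 72, ST6GAL1, a sialyltransferase, 9 of 27, ENTPD1, the ectonucleotidase CD39 that breaks down ATP and ADP, 7 of 24, and RASGRP3, a Ras activator, 7 of 22. SALL1, a transcription factor of microglial identity in the brain, had 2 regions and TREM2 4, with 0 called in every library for either gene.

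Of the 25 genes of this wider set with at least 5 regions, limma called 0 in each comparison with WT, and 5 had an unadjusted p below 0.05 in TREM2-R47H, 1 in INPP5D SNP and 0 in each other single line. Of all 8732 genes 736 (8.43%) had one in TREM2-R47H, 251 in INPP5D SNP and 220 to 415 in the other lines. In SORL1-KO 23 of the 25 had a positive depth-adjusted difference, the most of any line, with a median of 0.0661 against 0.00556 for all genes. In the same line 6 of 8 myeloid identity genes were positive (median 0.0561), and of the 5 tested members 2 were (median -0.0278). In TREM2-R47H 17 of the 25 were positive (median 0.0797, all genes 0.00820), as were 5 of 8 myeloid identity genes (median 0.0535). The wider set had 12 positive in TREM2-KO (median -0.00272, all genes -0.0130) and 14 in SORL1-A528T (median 0.00816, all genes -0.000151). It had 16 in CD33 SNP (median 0.0211, all genes 0.00645) and 16 in INPP5D SNP (median 0.0218, all genes 0.00242). The share of positive genes among all genes was not counted, and every comparison uses the same WT libraries. CSF1R and ITGAM are in both the wider set and the myeloid identity list.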
